A study of Mus musculus with 6 samples.

Results

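The nuclear-encoded genes of the mitochondrial respiratory chain were followed across the cell types of the obstructed mouse kidney. They were picked by gene symbol: the Ndufa (without the Ndufaf assembly factors), Ndufb, Ndufc, Ndufs and Ndufv genes of complex I, the Sdh genes of complex II, the Uqcr genes of complex III, the Cox4i, Cox5, Cox6, Cox7 and Cox8 genes of complex IV, the Atp5 genes of ATP synthase (complex V), and Cycs, which encodes cytochrome c. The rule found 97 of the 31276 genes in the deposited matrices. Of these, 75 encode subunits, 8 encode tissue or condition isoforms, 6 encode assembly or other factors that share a prefix (Sdhaf1 to Sdhaf4, Cox7a2l and Atp5s), and 8 are pseudogenes by their symbols. Complex I held 37 of them, complex II 8, complex III 10, complex IV 20 (with Ndufa4 and Ndufa4l2, whose products belong to complex IV) and complex V 21.

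The study dissociated kidneys of C57BL/6 mice 7 days after unilateral ureteral obstruction, a surgical model in which the blocked kidney becomes inflamed and fibrotic. All 6 libraries used here came from obstructed kidneys, 3 from mice given SH045, an inhibitor of TRPC6, the cation channel named in the series title, and 3 from mice given Vehicle, with 1 mouse per library. The strain and the surgery were therefore shared by both groups. The dose of SH045 and the age and sex of the mice are not given in the sources used here, and the unobstructed kidneys and the spatial samples were not analysed here.

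The respiratory chain sits in the inner mitochondrial membrane. Complexes I and II feed electrons to ubiquinone, complex III passes them to cytochrome c, complex IV hands them to oxygen, and complex V uses the proton gradient that results to make ATP. A few core subunits are encoded by mitochondrial DNA, and all others, including every subunit of complex II, are encoded in the nucleus and imported. In the kidney, the tubule segments that do most of the active transport are packed with mitochondria, whereas macrophages can shift between oxidative and glycolytic metabolism.

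Many nuclear genes of the chain are known targets of the transcription factor NRF1, which binds a palindromic site of 10 bases. Promoter sequences are shown because the genes of the chain moved together in macrophages, as described below. RefSeq (GRCm38.p6) promoters were matched for 72 of the 97 genes, and the 250 bases before each annotated start were searched on both strands. The 4 promoters that held the full site are shown 5′ to 3′ on the gene's strand, each as 50 bases upstream of the annotated start, with the NRF1 site in capitals.
Atp5k, chr5:108434420-108434469, minus strand: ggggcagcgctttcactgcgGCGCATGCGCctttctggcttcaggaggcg
Cox6a1, chr5:115349091-115349140, minus strand: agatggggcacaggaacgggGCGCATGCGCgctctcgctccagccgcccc
Atp5g2, chr15:102671060-102671109, minus strand: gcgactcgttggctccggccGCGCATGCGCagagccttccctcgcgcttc
Ndufa11, chr17:56717682-56717731, plus strand: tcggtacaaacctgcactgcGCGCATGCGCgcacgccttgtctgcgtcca
Atp5k encodes the e subunit of ATP synthase, Atp5g2 one of the genes for its membrane ring subunit c, Cox6a1 the broadly expressed form of complex IV subunit 6a, and Ndufa11 an accessory subunit of complex I. The site began 50 bases before the start of Atp5k, 162 before that of Cox6a1, 42 before that of Atp5g2 and 60 before that of Ndufa11.

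The full NRF1 site was found in 4 of the 72 promoters (5.56%), against 0.88% of the promoters of 27025 genes. With any base allowed at the fifth position of the site, which takes in the full site, 13 of 72 (18.1%) had a match against 4.23% of all genes. The core of the GABP site, CCGGAAG, was in 14 (19.4%) against 7.83%, and the estrogen-related receptor half-site AAGGTCA was in 5 (6.94%) against 4.7%. The longer receptor site TCAAGGTCA, which contains that half-site, was in 1 (1.39%) against 0.42%, and the YY1 site in 1 against 0.36%. These matches describe the letters in the window and say nothing about binding.

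The 6 libraries held 21186872 to 32256602 UMIs (unique molecular identifiers, each counting 1 captured transcript). Of 25978 barcodes, 23578 had at least 200 genes and at most 50% mitochondrial UMIs. Barcodes over the mitochondrial limit were a larger share with SH045, at 10.3%, 10.4% and 16.5% of barcodes against 4.17%, 5.29% and 3.56% with Vehicle, and its part in the results was not tested beyond a stricter limit of 20% given below. Cells were assigned to classes by the number of fixed marker genes detected. Barcodes with markers of a second compartment (1083, "mixed") were left out, the only step taken against doublets, 447 were tied and 1622 had too few markers. The gate set apart 10131 macrophages, of which 98.8% had a UMI of C1qb against 24.6% of all other cells. Tests covered the 9 classes that held 20 or more cells in every library. A total of 384 kept cells carried barcodes found in more than 1 library, with 52 shared by SH045 libraries 1 and 2 and 6 to 20 by each other pair.

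Among the 9 tested classes, the respiratory chain genes took up the largest share of transcripts in intercalated cells, the acid-secreting and base-secreting cells of the collecting duct, and in the thick ascending limb, the sodium-reabsorbing segment of Henle's loop. They made up 8.24% ± 0.89 of UMIs in intercalated cells (mean ± SD over 6 libraries) and 7.70% ± 1.36 in the thick ascending limb. Principal cells of the collecting duct followed at 6.16% ± 0.61, proximal tubule cells at 5.73% ± 0.71 and injured tubule cells, marked by genes such as Havcr1, at 5.00% ± 0.49. Immune and vascular cells were lower, with 3.59% ± 0.35 in T cells, 2.89% ± 0.15 in dendritic cells, 2.66% ± 0.30 in endothelium and 2.63% ± 0.26 in macrophages. Neighbours in this order were separated in at least 5 of the 6 libraries, except endothelium and macrophages, where endothelium was higher in 3 of 6. As a share of UMIs that did not come from mitochondrial DNA, proximal tubule cells (6.78%) and principal cells (6.63%) changed places. Of the classes too small to test, B or plasma cells (1.45% over all libraries), neutrophils (2.16%) and fibroblasts (2.46%) were below macrophages (2.68% counted the same way).

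**Figure D1:**
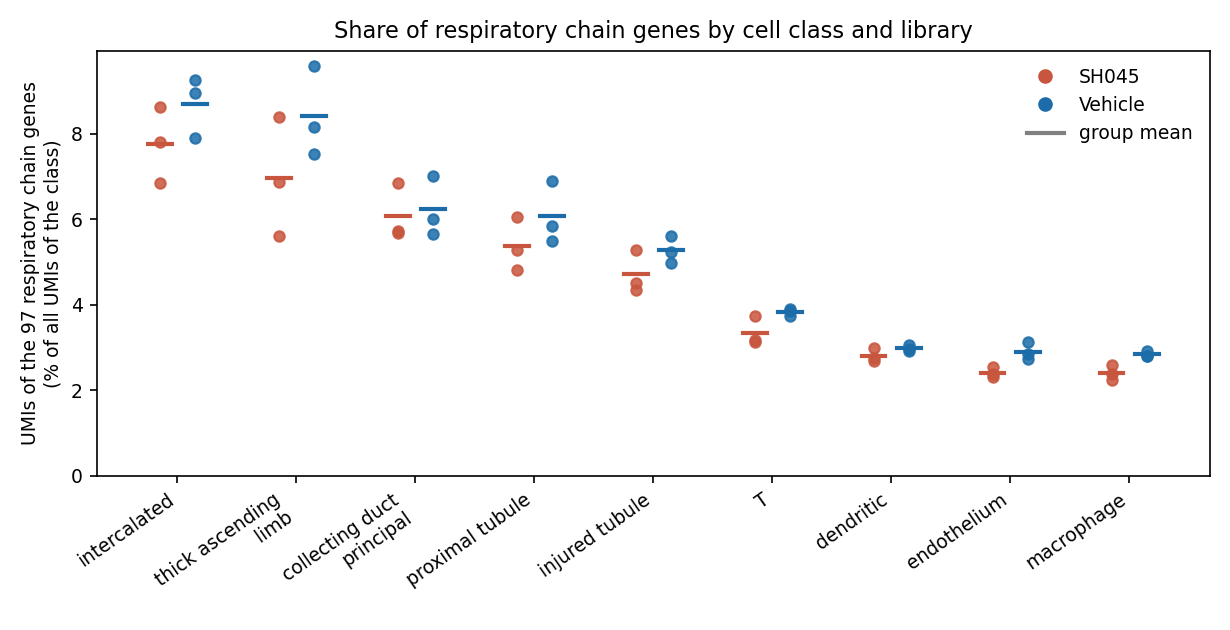
Share of all UMIs (percent) that came from the 97 respiratory chain genes, by cell class; each point is 1 library and each line a group mean. Among these 9 tested classes, intercalated cells and the thick ascending limb sit highest and macrophages lowest, and in macrophages all 3 SH045 points (2.25% to 2.59%) lie below all 3 Vehicle points (2.79% to 2.93%).

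The difference between tubule and macrophage was tested on UMIs summed per library over all tubule cells (proximal, injured, thick ascending limb, distal convoluted, principal and intercalated) and over macrophages, with the library as a block. Of 86 genes of the chain tested, 78 (90.7%) were higher in tubule cells and 3 were lower at an adjusted p under 0.05 (edgeR's quasi-likelihood test). Among all 13541 genes tested in this comparison, 41.7% were higher and 39.7% lower. The median difference of the chain genes was 0.81 on the log2 scale, against 0.03 over all genes. Scaling by total UMIs alone moved the median of all genes to 0.48, and the chain genes then had a median of 1.25, with 83 higher and 2 lower (57.0% and 26.7% of all genes). All complexes took part: 34 of 36 tested genes of complex I were higher (median 0.85), 7 of 8 of complex II (0.53), 8 of 8 of complex III (1.13), 13 of 15 of complex IV (0.90) and 14 of 16 of complex V (0.77), pseudogenes left out.

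Ndufa4, a small subunit of complex IV once assigned to complex I, was at 2076, 2661 and 2102 CPM in the tubule cells of SH045 mice and 3062, 3420.3 and 2569 in those of Vehicle mice, against 553, 729 and 812 and 908, 997 and 876 in the macrophages of the same mice (CPM, the usual depth-scaled count, with edgeR's TMM factors over both cell types; log2 1.71 ± 0.08 (SE), adjusted p = 1.98e-10). Atp5b, the catalytic beta subunit of ATP synthase, was at 996, 1365 and 1029 CPM in the tubule cells of SH045 mice and 1506, 1389 and 1117 in those of Vehicle mice, against 305, 348 and 328 and 396, 446 and 401 in the macrophages of the same mice (log2 1.73 ± 0.08 (SE), adjusted p = 1.4e-10). The lowest tubule value of each of these genes was above its highest macrophage value. Cycs was 3.50-fold higher in tubule cells (log2 1.81), Ndufs1, the largest subunit of complex I, 2.94-fold (log2 1.56), and Uqcrfs1, the Rieske iron-sulfur protein of complex III, 2.56-fold (log2 1.35). Sdha, the flavoprotein of complex II, was higher by a smaller factor of 1.73 (log2 0.79). Each was higher in tubule cells in 6 of 6 libraries.

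The 3 genes that were lower in tubule cells were Cox7a2l, Sdhaf2 and Cox6a2. Cox7a2l, which encodes a factor that joins complexes III and IV into supercomplexes, was at 209.6, 255 and 208 CPM in the tubule cells of SH045 mice and 252, 235 and 236 in those of Vehicle mice, against 323, 389 and 319 and 425, 376 and 411 in the macrophages of the same mice (log2 -0.68 ± 0.06 (SE), adjusted p = 2.76e-07). Sdhaf2, the factor that attaches the flavin to Sdha, was lower in tubule cells (log2 -0.36 ± 0.07 (SE), adjusted p = 0.000413), but with scaling by total UMIs alone it stood at 0.09 (adjusted p = 0.37). Cox6a2, the muscle form of complex IV subunit 6a, was near the detection limit in tubule cells, with 0 to 0.993 CPM in each library against 2.52 to 5.44 in macrophages (log2 -3.23).

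**Figure D2:**
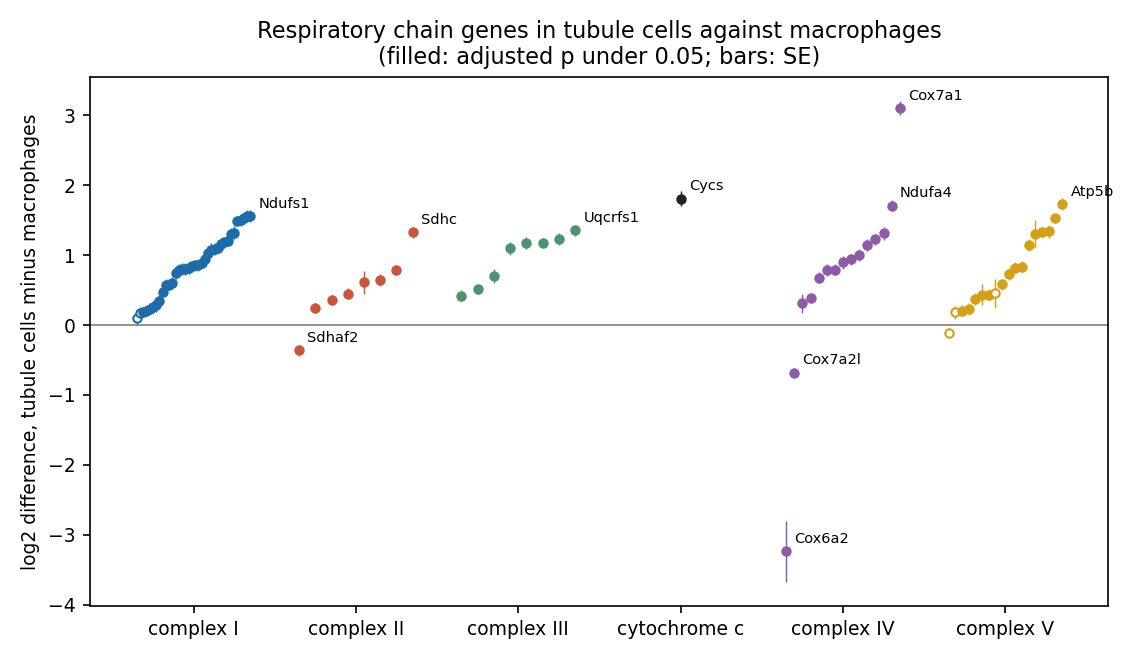
Difference of each tested respiratory chain gene between tubule cells and macrophages (log2, positive where tubule cells are higher), grouped by complex; filled points passed an adjusted p under 0.05. Most points lie above 0, Cox7a1 is highest at 3.10 and Cox6a2 lowest at -3.23.

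The isoforms of complex IV differed between cell classes. Cox7a1, the heart and muscle form of subunit 7a, was at 337 ± 55.6 CPM in intercalated cells (mean ± SD over 6 libraries, scaled to the class total). It was at 122 ± 32.9 in principal cells, 54.9 ± 18.4 in the thick ascending limb and 45.9 ± 10.6 in proximal tubule cells. Its values in pericytes, fibroblasts and endothelium are not given here. Macrophages had 8.32 ± 1.19 CPM. Over all tubule cells it was 8.57-fold higher than in macrophages (log2 3.10 ± 0.10 (SE), adjusted p = 4.39e-12). Cox6a2 showed another distribution, with 40.4 ± 29.8 CPM in dendritic cells (20, 68 and 27 UMIs with SH045 and 49, 0 and 48 with Vehicle), 107 UMIs in monocytes (105 CPM over all libraries) and 30 UMIs in natural killer cells (65.8 CPM), against 7.78 ± 10.4 CPM in T cells.

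Ndufa4l2, the hypoxia-inducible relative of Ndufa4, and Cox4i2, the alternative form of complex IV subunit 4, were concentrated in pericytes and smooth muscle cells. Ndufa4l2 reached 656 CPM there (210 UMIs over all libraries) and 139.7 CPM in fibroblasts (325 UMIs), with 11 UMIs in endothelium. In pericytes it was at 783, 802 and 307 CPM with SH045 and 269, 448 and 648 with Vehicle, so the groups overlapped. Cox4i2 had 84 UMIs in pericytes (262 CPM), 13 in fibroblasts and 25 in the far larger macrophage class. These cells were too few to test, at 9 to 16 pericytes in each SH045 library and 1 to 9 in each Vehicle library. Cox8b, a muscle form, had 22 UMIs in all, of which 21 were in SH045 library 1, and none in any gated class.

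In macrophages, the respiratory chain genes were lower with SH045 across every complex. Of 86 genes tested, 38 (44.2%) fell and 0 rose at an adjusted p under 0.05, where 6.7% of all 11961 genes tested in macrophages fell and 7.09% rose. DESeq2 called 56 lower, where it called 9.25% of all genes lower, and 0 higher. Of the 86, 60 had an unadjusted p under 0.05 in edgeR, and each of them was lower. The count of all genes at that unadjusted p is not given here. The median change was -0.41 on the log2 scale against 0.02 over all genes. In 65 of the 86 (75.6%) each SH045 library was below each Vehicle library, against 16.4% of all genes, and in 0 was each SH045 library above (18.6% of all genes). The 5 isoforms Cox4i2, Cox7b2, Cox8b, Cox8c and Ndufa4l2 and 6 pseudogenes were too low to be tested.

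Summed over all 97 genes, macrophages had 19907, 25795 and 22811 CPM with SH045 and 31688, 30029 and 29289.6 with Vehicle (TMM-scaled within macrophages). The groups did not overlap, and the ratio of means was -0.41 on the log2 scale. The sums of complex I (-0.44), complex II (-0.40), complex III (-0.43), complex IV (-0.37) and complex V (-0.41) differed by similar amounts, again without overlap, and cytochrome c stood at -0.67. These sums carry no test. The sums and the fitted log2 changes depend on the TMM factors. In macrophages these ranged from 1.006 to 1.136 for SH045 libraries, but only from 0.927 to 0.961 for Vehicle libraries. A higher factor lowers a library's CPM, so the scaling widened the gap. Unscaled, the chain genes' share of macrophage UMIs still did not overlap (2.25% to 2.59% against 2.79% to 2.93%). No fit scaled by total UMIs alone was run within macrophages.

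Complex I contributed 19 of its 36 tested genes (median -0.43). Ndufa12, an accessory subunit of the matrix arm, was at 185, 261 and 244 CPM with SH045 and 412, 349 and 312 with Vehicle (log2 -0.64 ± 0.15 (SE), adjusted p = 0.0137), and Ndufa1, a small membrane-arm subunit encoded on chromosome X (GRCm38, X:37187588-37191163), at 197, 258 and 242 with SH045 and 367, 327 and 341 with Vehicle (log2 -0.57 ± 0.13 (SE), adjusted p = 0.0126). Ndufv1, which carries the NADH-binding flavin site, was at 39.5, 46.2 and 38.4 with SH045 and 60.8, 55.8 and 51.4 with Vehicle (log2 -0.43 ± 0.13 (SE), adjusted p = 0.0331). In each of the 3 genes all SH045 libraries lay below all Vehicle libraries. Ndufs1, which carries several of the iron-sulfur clusters, did not follow: it was at 29.1, 29.1 and 23.0 with SH045 and 21.4, 24.6 and 25.6 with Vehicle, and the groups overlapped (log2 0.17 ± 0.15 (SE), adjusted p = 0.483).

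In complex II, counted with its 4 Sdhaf assembly factors, 2 of 8 genes fell, the iron-sulfur subunit Sdhb and the membrane anchor Sdhd (log2 -0.48, adjusted p = 0.0248). Sdhb was at 159.8, 242 and 212 CPM with SH045 and 395, 294 and 272 with Vehicle (log2 -0.64 ± 0.17 (SE), adjusted p = 0.0299), with no overlap. Its partner Sdha was at 94.9, 107 and 94.9 with SH045 and 114, 104 and 98.8 with Vehicle, with overlapping groups (log2 -0.09 ± 0.12 (SE), adjusted p = 0.637).

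In complex III, 4 of 8 genes fell: Uqcrc1, Uqcr10, Uqcrq and Uqcrfs1 (median of the complex -0.42). Uqcrc1, the core 1 subunit (GRCm38, 9:108936633-108949623), was at 144, 211 and 180.0 CPM with SH045 and 333, 278 and 258 with Vehicle (log2 -0.70 ± 0.15 (SE), adjusted p = 0.0086). The Rieske protein Uqcrfs1 was at 96.9, 126 and 95.9 with SH045 and 152, 145 and 138 with Vehicle (log2 -0.45 ± 0.13 (SE), adjusted p = 0.0308). Neither gene overlapped between the groups. Uqcrc2, the core 2 subunit, had a log2 change of -0.18 that did not pass the test (adjusted p = 0.303).

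Cycs (GRCm38, 6:50562563-50566538), the soluble electron carrier that also takes part in apoptosis once released from mitochondria, had the smallest p of all genes of the chain. It was at 74.4, 94.4 and 94.2 CPM with SH045 and 135, 142 and 140.0 with Vehicle (log2 -0.66 ± 0.12 (SE), adjusted p = 0.00458), and the gap between the groups was wider than the spread within either. It was called in 6 of the 6 fits that left out 1 library (edgeR adjusted p from 0.0028 to 0.0234); Uqcrc1, Ndufa1 and Ndufa12 were called in 5 of them.

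In complex IV, 5 of 15 tested genes fell: Cox5a, Cox5b, Cox6b1, Cox7b and Cox8a. Cox5a, one of the matrix-side subunits, was at 373, 491 and 382 CPM with SH045 and 618, 585 and 537 with Vehicle (log2 -0.48 ± 0.14 (SE), adjusted p = 0.0334), and Cox7b at 254, 344 and 281 with SH045 and 435, 428 and 394 with Vehicle (log2 -0.52 ± 0.14 (SE), adjusted p = 0.0221). Both were lower in 3 of 3 SH045 libraries than in any Vehicle library. Cox4i1, the widely expressed form of subunit 4, was at 1939, 2472 and 2055 with SH045 and 2314, 2735 and 2644 with Vehicle (log2 -0.25 ± 0.14 (SE), adjusted p = 0.25). The isoforms Cox7a1 (log2 0.07, adjusted p = 0.868) and Cox6a2 (log2 0.32, adjusted p = 0.59) had positive values that did not pass.

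In complex V, 7 of 16 genes fell, among them Atp5o, the subunit that joins the stalk to the catalytic head, at 266, 387 and 328 CPM with SH045 and 527, 470.2 and 446 with Vehicle (log2 -0.56 ± 0.15 (SE), adjusted p = 0.022). Atp5k, whose promoter is shown above, had a log2 change of -0.56 (adjusted p = 0.0232). The catalytic core differed from these: Atp5b was at 265, 299 and 285 with SH045 and 334, 378 and 340.0 with Vehicle (log2 -0.31 ± 0.12 (SE), adjusted p = 0.101), with no overlap but short of the threshold, and Atp5a1, the alpha subunit, at 236, 267 and 242 with SH045 and 240.5, 259 and 253 with Vehicle (log2 -0.01 ± 0.12 (SE), adjusted p = 0.956), with overlap. At the threshold itself, Atp5f1 was just inside (adjusted p = 0.0494) and Cox6c just outside (adjusted p = 0.05). Reads of Atp5c1, Atp5k, Atp5l, Ndufab1 and Uqcrh may be shared with pseudogene copies that are listed in the same matrices, so their values are less certain.

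**Figure D3:**
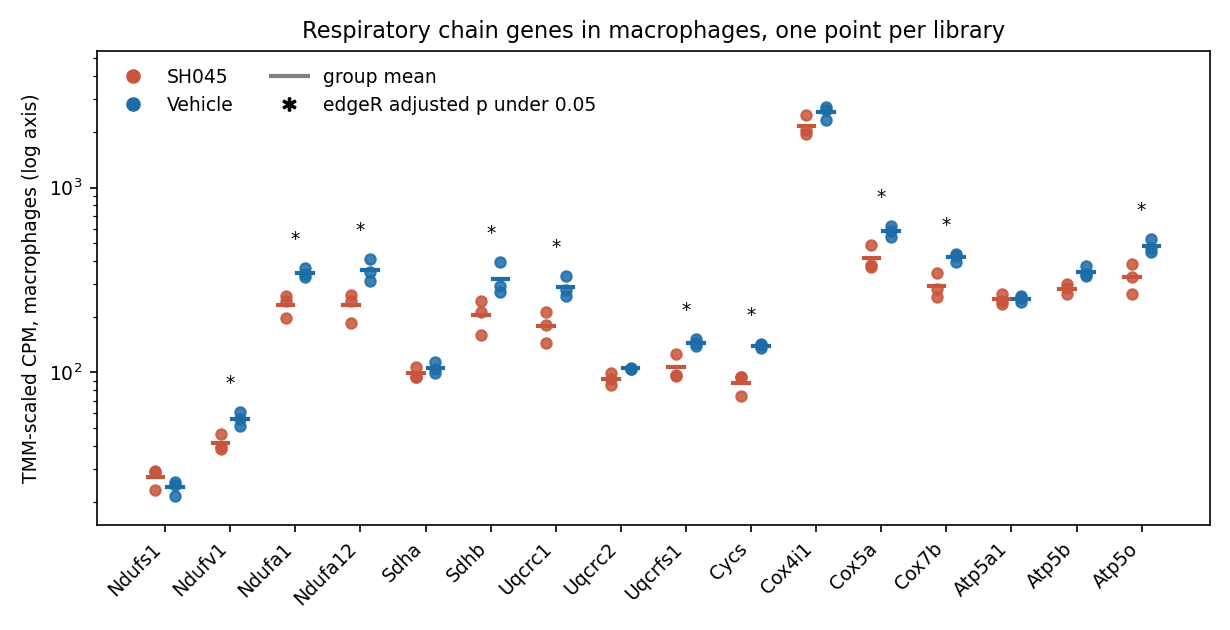
TMM-scaled CPM (log axis) of 16 named respiratory chain genes in macrophages; each point is 1 library, lines are group means and asterisks mark an edgeR adjusted p under 0.05. Cycs and Uqcrc1 separate completely, while Ndufs1, Sdha and Atp5a1 overlap.

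Promoters with and without the NRF1 letters had similar medians in macrophages. The 13 genes with the site, any base allowed at the fifth position, had a median log2 change of -0.41, and 5 of 13 fell; those without it had -0.44, and 30 of 57 fell. For CCGGAAG the medians were -0.40 (4 of 14 fell) and -0.44 (31 of 56 fell).

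Leaving out 1 library changed how many genes passed. Without SH045 library 1, 2 or 3, the test called 4, 53 or 6 of the chain genes lower, and without Vehicle library 1, 2 or 3 it called 1, 4 or 28. The number of all genes called lower moved with it, from 801 with all libraries to 206 without Vehicle library 2 and 1142 without SH045 library 2. With a limit of 20% on mitochondrial UMIs, 36 genes fell, and 37 fell without the barcodes found in more than 1 library. The counts of all genes called lower in the remaining fits are not given here, so the chain genes were not set against them.

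The mix of macrophages differed between the groups. Resident-type cells, defined by UMIs of at least 2 of Stab1, Ccl8, Pf4 and F13a1, made up 33.6%, 31.5% and 40.5% of macrophages with SH045 and 27.2%, 32.7% and 30.8% with Vehicle. Cells with 3 or more Fn1 UMIs, a gene often high in recruited macrophages, made up 5.42%, 7.24% and 2.06% with SH045 and 9.48%, 17.4% and 13.2% with Vehicle, without overlap, and chain genes took up more of their UMIs (2.95% to 3.51% by library, against 2.18% to 2.80% in the remaining macrophages). Without the Fn1 cells, 14 chain genes fell (3.82% of all genes did) and their median was -0.36. In resident-type cells alone, which are about 1 in 3 macrophages and give fewer counts, 3 fell (1.75% of all genes did) and the median was again -0.36. Cycs was among those that did not pass there (log2 -0.52, adjusted p = 0.0805). In these resident-type cells the chain genes' share of UMIs was 2.21%, 2.53% and 2.32% with SH045 against 2.87%, 2.61% and 2.65% with Vehicle, still without overlap.

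Markers of other cells were also found in the macrophage sums. The 10 dendritic cell markers summed to 498, 561 and 537 CPM with SH045 and 677, 515 and 630.2 with Vehicle, against 2573 in dendritic cells, and the monocyte markers to 1179, 855 and 709 against 809, 778 and 927, with 5908 in monocytes. Both lists overlapped between the groups. The 10 proximal tubule markers, all of them detected, summed to 102, 69.0 and 57.6 CPM with SH045 and 87.7, 64.6 and 50.6 with Vehicle, against 10126 CPM in proximal tubule cells, and those of the thick ascending limb, intercalated cells and injured tubule also overlapped. Principal cell markers were higher with SH045 (24.5, 20.1 and 10.3 CPM against 7.04, 7.06 and 9.75), as were those of endothelium, natural killer cells and the distal convoluted tubule and the macrophage markers themselves. No marker list was lower in all SH045 libraries, and the markers Fcnb of monocytes and Pvalb of the distal convoluted tubule were at 0. Their part in the result was not tested.

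Transcript length was considered because the change in macrophages moved with it over all genes. The chain genes are short: the principal transcript had a median of 861 bases (360 to 4715, pseudogenes left out) against 2786 for all genes tested in macrophages. Over all 11954 genes with a length, Spearman's correlation of the change with length was 0.469; over the 86 chain genes it was 0.03. Both describe genes of the same 6 libraries, which are not independent points. Among the shortest transcripts, under 600 bases, the median change was -0.40 for the chain genes and -0.09 for all genes, and 7 of 21 chain genes fell against 6.52% of all. From 600 to under 1000 bases the medians were closer, at -0.41 and -0.29 (11 of 28 against 18.3%). From 1000 to under 2000 bases they were -0.45 and -0.20 (16 of 25 against 12.9%), and at 2000 bases or more -0.20 and 0.14 (4 of 12 against 3.6%).

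When the trend with length was removed from the fit, the median of the chain genes moved to -0.19 and 6 passed, against 3.74% of all genes called lower in that fit. These were Cycs (log2 -0.71, adjusted p = 0.00436), Uqcrc1 (-0.52, adjusted p = 0.0253), Ndufa1 (-0.36, adjusted p = 0.0481), Atp5g1 (-0.72, adjusted p = 0.0159), Ndufab1 (-0.62, adjusted p = 0.0209) and Ndufb2 (-0.67, adjusted p = 0.0128). Cycs, Atp5g1, Ndufab1 and Ndufb2 are the 4 that had fallen among transcripts of 2000 bases or more. The lengths used for them (3123, 4715, 3479 and 4371 bases) are also those of their longest annotated transcripts. Whether the transcripts counted were that long was not tested, and their length-removed values depend on it. Atp5g1 encodes ring subunit c of ATP synthase, and Ndufab1 the mitochondrial acyl carrier protein, which is also a subunit of complex I.

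**Figure D4:**
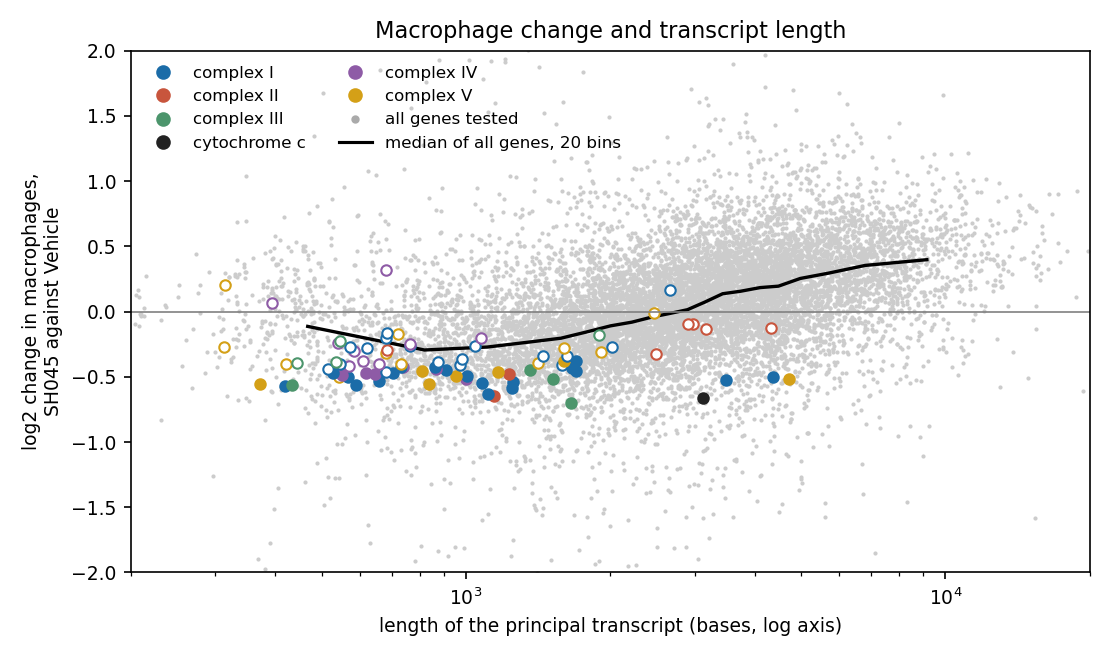
Log2 change with SH045 in macrophages against the length of the principal transcript (bases, log axis); grey points are all genes tested, the black line their binned median, and coloured points the respiratory chain genes, filled where adjusted p was under 0.05. The chain genes under 2000 bases lie near -0.4 and mostly under the line, and Cycs, at 3123 bases, lies at -0.66.

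Transcripts of mitochondrial DNA took a larger share of macrophage UMIs with SH045. They made up 3.52%, 3.36% and 3.79% of UMIs with SH045 and 2.44%, 3.10% and 2.72% with Vehicle, without overlap, and the number of nuclear-encoded chain UMIs per mitochondrial UMI was 0.64, 0.771 and 0.632 against 1.20, 0.9 and 1.03. Of the other 8 tested classes, 3 also did not overlap in this ratio. In T cells it was 0.835, 1.00 and 0.712 against 1.72, 1.51 and 1.55. In dendritic cells it was 1.13, 1.10 and 0.836 against 1.66, 1.21 and 1.40, and in endothelium 0.66, 0.527 and 0.524 against 0.993, 0.887 and 0.824. In the tubule classes the groups overlapped. Of 7 mitochondrially encoded subunits tested in macrophages, mt-Nd5 rose (log2 0.50, adjusted p = 0.027) and 0 fell.

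In the other 8 classes no gene of the chain passed edgeR's test in either direction, although each median was negative. In simulated counts with a log2 change of 0.4 in 94 to 100 genes, the test recovered 0% to 4% of them in these classes. It recovered 6.1% of such changes in macrophages. The changed genes were drawn at random from all genes tested. The chain genes, many of them abundant, were not simulated as a set, so these rates may not hold for them. A gene that did not pass is still not shown to be unchanged. In the thick ascending limb the median of 84 genes was -0.37, with 33 at an unadjusted p under 0.05, and 0.0% of all genes passed in either direction. The median was -0.29 in proximal tubule cells (9 of 84 at p under 0.05, 0.0% of all genes called), -0.28 in endothelium (11 of 77, 0.653%) and -0.26 in injured tubule cells (27 of 84, 1.64%). Dendritic cells had -0.22 (21 of 80, 0.811%), intercalated cells -0.20 (12 of 84, 1.46%), T cells -0.19 (12 of 79, 0.319%) and principal cells -0.11 (1 of 84, 3.28%). These percentages count all genes at an adjusted p under 0.05, so they are no background for the counts at an unadjusted p. At an unadjusted p under 0.05 in edgeR there were 852 of all 6778 genes in dendritic cells and 1759 of all 9739 in principal cells. For the remaining classes, the thick ascending limb among them, that count is not given here, so their chain genes were not set against it. DESeq2 called 1 gene lower in intercalated cells, Uqcrc1 (adjusted p = 0.0485 by DESeq2 and 0.0779 by edgeR), where it called 2.16% of all genes lower, and 0 in the other 7 classes.

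In TMM-scaled CPM, the groups were fully separated for a larger share of chain genes than of all genes in several of these classes. Every SH045 library was below every Vehicle library for 31 of 80 genes in dendritic cells (38.8%, against 9.93% of all genes), for 25 of 84 in injured tubule cells (29.8% against 12.5%) and for 21 of 79 in T cells (26.6% against 8.08%). In endothelium the count was 18 of 77 (23.4% against 8.57%) and in the thick ascending limb 11 of 84 (13.1% against 8.41%). Proximal tubule cells, at 7 of 84 (8.33% against 6.41%), were near the background, and intercalated cells (2 of 84, 2.38% against 10.2%) and principal cells (2 of 84, 2.38% against 11.8%) were below it. Unscaled, the chain genes' share of UMIs overlapped between SH045 and Vehicle in dendritic cells (2.68% to 2.99% against 2.92% to 3.07%). It also overlapped in injured tubule cells (4.35% to 5.28% against 4.97% to 5.62%). The same held in the thick ascending limb (5.62% to 8.4% against 7.54% to 9.58%). T cells overlapped barely (3.122% to 3.742% against 3.741% to 3.903%), and endothelium did not (2.32% to 2.55% against 2.73% to 3.12%). With the length trend removed, the medians were -0.20 in proximal tubule cells, -0.18 in the thick ascending limb, -0.16 in endothelium and between -0.10 and 0.10 in the other 5 classes.

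**Figure D5:**
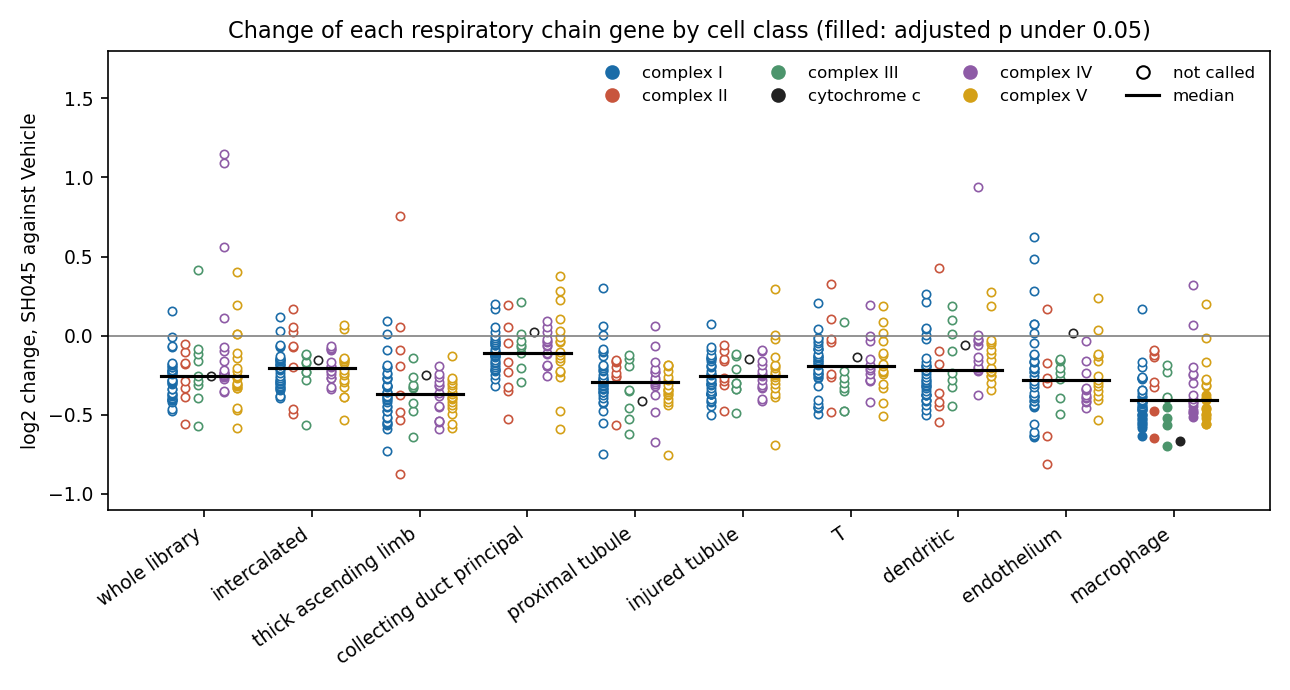
Log2 change with SH045 of each tested respiratory chain gene in whole libraries and in 9 cell classes, coloured by complex, with the median as a line; filled points passed an adjusted p under 0.05. Filled points appear in the macrophage column alone, and the medians run from -0.41 in macrophages to -0.11 in principal cells.

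The difference between the change in tubule cells and the change in macrophages was tested directly, and no gene of the chain passed the test of that difference (0 of 86 in edgeR, with 0.0684% of all genes called in either direction). An unadjusted p under 0.05 was seen in 13, each with the less negative change in tubule cells, without a count of all genes at that p beside it. The median difference was 0.20 on the log2 scale, or 0.09 with scaling by total UMIs alone. For Cycs the difference was 0.48 ± 0.15 (SE, adjusted p = 0.309). The make-up of the tubule cells varied between libraries, since proximal cells were 29.6%, 19.1% and 20.8% of them with SH045 and 54.9%, 19.4% and 13.3% with Vehicle.

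In UMIs summed over whole libraries, 0 of 91 genes of the chain passed edgeR's test, where 1.36% of all genes were called lower and 2.95% higher. An unadjusted p under 0.05 was found for 7 lower and 1 higher, and for 4406 of all 16532 genes in either direction, a larger share. DESeq2 called 1, Ndufa4l2, higher (adjusted p = 0.0498, with 6.13% of all genes called higher). The median change was -0.25 against 0.01 over all genes, and -0.10 with the length trend removed. TMM factors also stood apart here, spanning 1.055 to 1.143 for SH045 libraries and 0.898 to 0.936 for Vehicle libraries. This scaling lowers SH045 values relative to Vehicle. Unscaled, the chain genes' share of UMIs overlapped between the groups (3.71% to 5.12% against 3.91% to 4.72%). Full separation was rarer than in the background, with 6 of 91 lower (6.59% against 15.0%) and 2 higher (against 18.4%). A whole library mixes cell types that differ in these genes, so fewer cells of a type and less RNA per cell cannot be told apart there.

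The genes with the smallest p among the lower ones were Uqcrc1, Sdhaf1, a factor for the iron-sulfur clusters of complex II, and Atp5k. Uqcrc1 was at 219, 336 and 257 CPM with SH045 and 476, 393 and 337 with Vehicle (log2 -0.57 ± 0.20 (SE), adjusted p = 0.123). Sdhaf1 had a log2 change of -0.39 (adjusted p = 0.142) and Atp5k one of -0.46 (adjusted p = 0.149). All 3 had non-overlapping groups. At the ends of their complexes were Ndufa13 (-0.48) and Ndufs1 (0.15) in complex I, Sdhb (-0.56) and Sdha (-0.05) in complex II, Uqcrb (-0.08) in complex III, and Atp5g2 (-0.47) and Atp5g3 (0.01) in complex V, and none of these passed.

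Among the genes that are not pseudogenes, the 3 highest values belonged to isoforms of complex IV, and none passed edgeR's test. Ndufa4l2 was at 8.18, 8.11 and 5.15 CPM with SH045 and 4.99, 1.62 and 3.21 with Vehicle (log2 1.15 ± 0.39 (SE), adjusted p = 0.12). Cox4i2 was at 2.15, 1.94 and 0.693 with SH045 and 0.964, 0.31 and 1.03 with Vehicle (log2 1.09 ± 0.55 (SE), adjusted p = 0.249), and Cox6a2 at 7.02, 6.66 and 6.78 with SH045 and 6.47, 2.20 and 5.31 with Vehicle (log2 0.56 ± 0.35 (SE), adjusted p = 0.341). Ndufa4l2 and Cox6a2 were separated between the groups, and Cox4i2 was not. The cells in which Ndufa4l2 was high also differed in number: the gate held 108, 125 and 74 fibroblasts and 16, 16 and 9 pericytes with SH045, against 20, 21 and 19 fibroblasts and 1, 7 and 9 pericytes with Vehicle. Within fibroblasts Ndufa4l2 was at 144, 110.3 and 130.4 CPM with SH045 and 430.1, 103 and 110.2 with Vehicle, with overlap.

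Other mitochondrial gene lists were read in macrophages against the same background of 6.7% of all genes that fell. Of 79 mitochondrial ribosomal protein genes, which build the subunits encoded by mitochondrial DNA, 32 fell and 0 rose (median -0.38), and 14 passed with the length trend removed. Of 41 assembly factors of the complexes, 6 fell (median -0.23), or 1 with length removed. Of 17 genes of pyruvate dehydrogenase and the TCA cycle, which supply the electrons, 3 fell (median -0.19), and 2 with length removed: Mdh2, malate dehydrogenase, was at 176 ± 37.2 against 312 ± 31.8 CPM (mean ± SD, n = 3 each; log2 -0.82 ± 0.15 SE, adjusted p = 0.00404) and Idh3a, a subunit of isocitrate dehydrogenase, had a log2 change of -0.65 (adjusted p = 0.0102). The third, Suclg1 of succinyl-CoA ligase, had -0.52 (adjusted p = 0.0255). Suclg2 of the same enzyme went the other way without passing (log2 0.41, adjusted p = 0.0713). Among 11 regulators tested, Esrra, the estrogen-related receptor alpha that acts with PGC-1 coactivators on these genes, fell (log2 -0.84, adjusted p = 0.0334; 0.0949 with length removed), and the list's median was 0.05. Vdac3 of the outer membrane pores (1 of 6 in its list) and Coq9 of ubiquinone synthesis (1 of 13) also fell. Of 87 cytosolic ribosomal protein genes, which are short and abundant as well, 1 fell (Rps27l, a relative that shares the prefix) and the median was -0.08.

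In tubule cells against macrophages, where 41.7% of all genes were higher and 39.7% lower, the counts of higher genes were 16 of 17 genes of pyruvate dehydrogenase and the TCA cycle (0 were lower), 28 of 41 assembly factors (2 were lower), 46 of 80 mitochondrial ribosomal proteins (7 were lower) and 8 of 8 mitochondrially encoded subunits. The regulator Ppargc1a, which encodes the coactivator PGC-1alpha, was higher by 5.83 on the log2 scale and Esrrg, the estrogen-related receptor gamma, by 5.34. Cytosolic ribosomal proteins were lower in tubule cells in 84 of 88. In whole libraries with SH045, Esrrg rose (log2 0.82, adjusted p = 0.0451; 0.176 with length removed), and Ppargc1a had 0.85 (adjusted p = 0.0513).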

How the data were processed

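Kidney cells were captured on barcoded oligo-dT beads (Singleron GEXSCOPE), per the labels' protocols. The authors deposited raw UMI counts per gene and barcode for each library; the genome build was mm10, per the submitters' processing notes, and the aligner is not given in the sources used here. Kept barcodes (at least 200 genes, at most 50% mitochondrial UMIs) were placed in the class with the highest share of its markers detected (at least 3). Counts were summed per library and class, and tested with edgeR 4.0.16 (TMM, filterByExpr, robust quasi-likelihood, Benjamini-Hochberg over all genes tested, adjusted p under 0.05); DESeq2 1.42.0 was an alternative. Transcript length came from GENCODE M21, as the longest transcript tagged principal or, where none was tagged, the longest of all. A principal transcript was tagged for 18269 of the 31276 genes. The trend with length was removed as an offset from a natural spline (5 degrees of freedom). Scripts were tested on simulated data. No doublet caller was run. Each library is 1 mouse, so p-values measure the spread between mice. Named genes were a fixed list of core subunits and isoforms, the 3 smallest p-values in each direction, the extremes of each complex and genes called against the median; other genes that are named were chosen after their values were seen. The genes and lists were chosen with earlier results of these data known.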

Additional observations from a re-analysis of the deposited data

How the results depend on the processing

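The fall of the respiratory chain genes in macrophages kept its direction under every alternative run, but the number that passed did not. Against 38 genes, leaving out 1 library gave 1 to 53. Removing the length trend gave 6, or 7 with the longest transcript in place of the principal one. Without Fn1 cells 14 passed, and in resident-type cells alone 3. Scaling by total UMIs alone was not among the alternatives run for whole libraries, macrophages or any other single class. Whether the replicate numbers pair the mice was not settled. Deviations of same-numbered libraries correlated at 0.033, 0.166 and 0.324 in whole libraries and at -0.188, 0.056 and 0.004 in macrophages. In whole libraries, SH045 libraries 2 and 3 correlated best with the Vehicle library of their own number. SH045 library 1 correlated best with Vehicle library 2 there (0.137). With the replicate number as a block, 25 genes passed in macrophages, without a count of all genes beside it. The length alternative with the longest transcript, the shared-barcode, Fn1 and resident-type alternatives and the scalings of the tubule comparison were chosen after seeing the data. The cause of each shift was not tested, except that fewer libraries or cells enter the fits that leave some out.

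Where no gene had passed, a few did under an alternative: 1 higher in whole libraries (DESeq2 test), 1 lower in intercalated cells (DESeq2 test; 0 to 4 when 1 library was left out), 4 lower in injured tubule cells and 5 in T cells (no low-count filter), 0 to 1 lower in proximal tubule cells and 0 to 1 higher in the difference between tubule cells and macrophages when 1 library was left out. The other counts stayed within 1.5 times of the value reported. For the fits without the low-count filter or without 1 library, the share of all genes called is not given beside these counts.

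Changes of sign touched named genes near 0 that had not passed, and Sdhaf2 in tubule cells against macrophages (0.0876 with total UMIs alone). In whole libraries, leaving out 1 library gave log2 changes of -0.1717 to 0.0383 for Sdha, -0.1344 to 0.076 for Atp5a1, -0.3439 to 0.3536 for Cox7a1, -0.1407 to 0.1216 for Atp5g3 and -0.3295 to 0.0005 for Uqcrb. DESeq2's size factors, DESeq2's test, removal of the top 5% of barcodes by UMIs and the use of all deposited barcodes gave -0.0157, -0.0151, -0.0001 and -0.0265 for Atp5a1, and -0.0147, -0.0139, -0.0181 and -0.0244 for Atp5g3. Atp5g3 was at -0.0038 without shared barcodes and at -0.0021 with the replicate block. Length removed with the principal or the longest transcript gave 0.0358 and 0.04 for Cox4i1 and 0.144 and 0.1435 for Uqcrb. In macrophages, leaving out 1 library gave -0.0837 to 0.017 for Atp5a1 and -0.0444 to 0.1965 for Cox7a1. The same length alternatives gave 0.0507 and 0.0687 for Atp5a1. With 4 markers required it was at 0.008 and Cox7a1 at -0.0525, and in resident-type cells alone Atp5a1 was at 0.0389, Sdha at 0.0135 and Cox7a1 at -0.1877. Without Fn1 cells Atp5a1 was at 0.0903.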
